A study of Mus musculus with 8 samples.

Results

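The collagen genes were examined in bulk RNA sequencing of mouse cortex with and without Nuak1, an AMPK-related kinase gene. Members were the rows of the deposited gene table whose symbol is Col, a number, the letter a and a number, with at least 1 count in any library. The symbol rule matched 41 of 21165 rows, and 39 of these had a count, namely 11 fibrillar collagens, 6 type IV collagens of basement membranes and 22 collagens of other types. The filter on low counts was passed by 33 of the 39, comprising 11 fibrillar, 5 type IV and 17 other collagens. Cortices of 4 KO embryos were compared with those of 4 WT embryos at E18.5, 1 embryo per library, and each comparison was repeated without KO library R1, in which several collagens stood far above their level in the other 7 libraries. KO embryos came from a constitutive Nuak1 null line on a C57Bl/6JRj background, in which the gene is lost in every cell type and the animals die at birth. WT embryos came from the same line and carried the intact gene. The labels give 2 male and 2 female KO embryos and 1 male and 3 female WT embryos, and name 3 litters where the series description counts 4. The columns of the count table carry only a genotype and a running number, so that no library could be tied to a sex or a litter by its label. Sex was not inferred from the counts of sex-linked genes.

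Collagens are secreted or membrane-bound proteins whose alpha chains wind into a triple helix, which requires glycine as the smallest residue at every turn, hence the repeat Gly-X-Y. Fibrillar collagens form the ropes of connective tissue and are made mainly by fibroblasts, type IV collagens form the meshwork of basement membranes, and the remaining types decorate fibrils, anchor membranes or span the cell surface. In the developing cortex, basement membranes line the pial surface, where radial glial endfeet attach, and the blood vessels, whereas fibrillar collagens lie mostly in the meninges and around larger vessels. Loss of the type IV chains encoded by Col4a1 and Col4a2 is a known cause of vascular fragility in the brain.

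The structural difference between the classes can be read in their coding sequences. Stretches of 5 Gly-X-Y triplets are shown here for members on which the results turn, 5′ to 3′ in mm9 coordinates, each within 1 coding exon, with the glycine codons (GGN) in capitals.
Col1a1, chr11:94801011-94801055, plus strand, exon 7: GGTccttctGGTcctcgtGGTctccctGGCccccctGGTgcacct
Col3a1, chr1:45382205-45382249, plus strand, exon 6: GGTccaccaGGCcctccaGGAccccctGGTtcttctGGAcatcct
Col4a1, chr8:11247051-11247095, minus strand, exon 3: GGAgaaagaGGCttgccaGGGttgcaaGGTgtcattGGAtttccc
Col4a2, chr8:11429447-11429491, plus strand, exon 29: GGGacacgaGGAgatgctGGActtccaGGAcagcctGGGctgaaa
Col9a3, chr2:180340432-180340476, plus strand, exon 12: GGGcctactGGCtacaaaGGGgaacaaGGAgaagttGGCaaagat
Col15a1, chr4:47283196-47283240, plus strand, exon 13: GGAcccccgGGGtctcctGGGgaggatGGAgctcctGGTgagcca

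The longest uninterrupted run of such triplets differed between the classes. In 9 of the 11 fibrillar genes it held 337 to 344 triplets, with 338 in Col1a1 and 344 in Col3a1, whereas in Col24a1 and Col27a1 it held 216 and 217. In the type IV genes the longest run held 39 to 66 triplets, since the repeat was broken into 23 to 27 runs of at least 3 triplets. Col9a3 had 113 triplets in its longest of 6 runs, and 85.3% of its codons lay in such runs, compared with 8.12% in Col12a1. Breaks in the repeat, which give the type IV helix its flexibility, are shown for both major chains, where the codons between the last triplet of one run and the first of the next do not keep the glycine register.
Col4a1, chr8:11235141-11235200, minus strand, exon 21, 2 codons in the break: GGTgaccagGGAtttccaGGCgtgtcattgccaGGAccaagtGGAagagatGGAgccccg
Col4a2, chr8:11415964-11416029, plus strand, exon 20, 4 codons in the break: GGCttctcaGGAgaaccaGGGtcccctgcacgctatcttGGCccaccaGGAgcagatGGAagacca

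**Figure D1:**
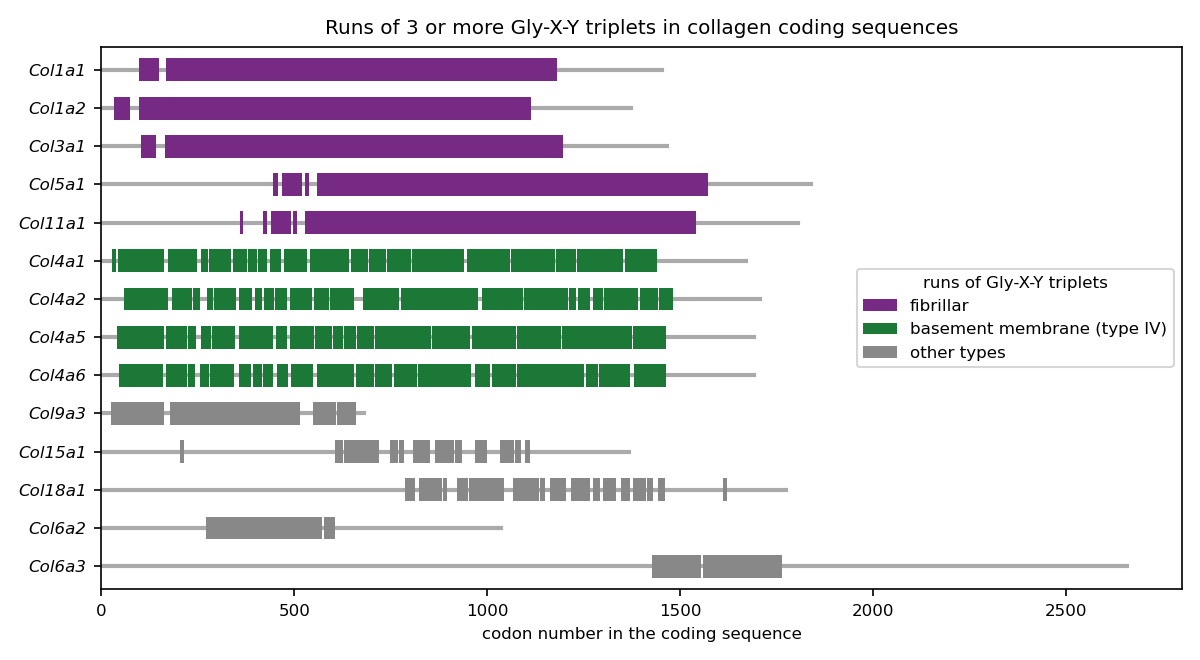
Each grey line is the coding sequence of a collagen gene in codons from the start codon (x axis), and each block is a run of at least 3 Gly-X-Y triplets, coloured by class. The 5 fibrillar genes drawn each have 1 long block, of 344 triplets in Col3a1, and the 4 type IV genes have many short blocks, whose narrowest breaks are thinner than the drawn line spacing.

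Before the collagens were compared, Nuak1 was checked in every library. It had 20.5, 13.7, 11.1 and 11.5 normalized counts in KO libraries R1 to R4 and 1377, 1445, 1118 and 877 in WT libraries R1 to R4, with a log2 fold change of -6.49 (edgeR quasi-likelihood test, adjusted p = 1.22e-07). Normalized counts are reads per gene after each library was brought to the same effective size by TMM, so that they can be compared between libraries but not between genes of unequal length. Library totals lay between 11027082 and 27014858 counts in KO and between 9643711 and 18940484 in WT. The tissue label was checked with markers of dorsal cortical neurons, whose normalized counts summed to 26263, 26394, 28936 and 27540 in KO libraries R1 to R4 and to 19394 to 25062 in WT. Every KO library thus lay above every WT library in this sum, and its part in the collagen differences was not tested.

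In WT cortex the most abundant collagen messages per length were the major type IV chains and Col9a3. Col4a1 had 600 ± 51.9 normalized counts per kb of transcript (SD, n = 4), Col4a2 had 440 ± 42.3 and Col9a3, a chain of the fibril-associated type IX collagen, had 427 ± 74.6. Every WT library had more Col4a1 per kb, at 529 to 641, than any WT library had Col4a2, at 400 to 484, whereas Col4a2 and Col9a3, at 356 to 508, overlapped. The next in order lay much lower, with Col11a1 at 110 ± 14.7 per kb and the basement membrane zone collagen Col15a1 at 80 ± 18.7, and these also overlapped between libraries. The chains of type I and type III collagen, the major fibrillar collagens of connective tissue, were scarce in WT cortex. Col1a1 stood at 4.22 ± 0.671, Col1a2 at 18.6 ± 2.6 and Col3a1 at 23.3 ± 7.18 normalized counts per kb in WT.

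The question put to the count table was whether loss of Nuak1 changed collagen expression in the cortex. Of 12699 genes tested by quasi-likelihood in edgeR, with p-values adjusted over all of them by Benjamini and Hochberg, 0 of the 33 tested collagens passed an adjusted p of 0.05, compared with 0.0709% of all genes, and neither DESeq2 nor limma voom called any. At an unadjusted p of 0.05, 8 of the 33 (24.2%) passed, compared with 7.69% of all genes. All 8 also passed the thresholds used in the study, an absolute log2 fold change over 0.25 with an unadjusted p under 0.05, and all were higher in KO, compared with 2.45% of all genes called higher. These were the fibrillar Col1a1, Col1a2 and Col3a1, the type IV chains Col4a1 and Col4a2, and Col6a2, Col9a3 and Col15a1. With DESeq2 in place of edgeR, or with robust dispersion, 3 collagens passed these thresholds, Col9a3 and Col15a1 in both cases. None of the 33 was called lower, where the share of all genes was 1.8%. A log2 fold change above 0 was found for 28 of the 33 collagens, namely 8 of 11 fibrillar, 5 of 5 type IV and 15 of 17 other types, compared with 45.6% of all genes. The median log2 fold change was 0.38 over the tested collagens (0.19 fibrillar, 0.48 type IV, 0.38 other), and -0.01 over all genes.

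Much of this rested on KO library R1. Without it, 12899 genes were tested, 0 of the 33 collagens passed an adjusted p of 0.05 (0.0465% of all genes), and 6 (18.2%) passed an unadjusted p of 0.05, compared with 5.63% of all genes. Past the study's thresholds, 3 collagens were called higher in KO (9.09%), Col1a1, Col9a3 and Col15a1, compared with 1.81% of all genes. With KO library R2 left out in place of R1, 14 of the collagens were called higher, and each remaining library moved the count of 8 by less. The share of all genes called higher in those fits was not computed, so these counts have no background to be set against. Col5a1 was called lower without KO library R1, 1 of 33, against 1.72% of all genes. The log2 fold change was above 0 for 22 of the 33 collagens, 7 of 11 fibrillar, 3 of 5 type IV and 12 of 17 other types, and for 49.9% of all genes. The median over the tested collagens was 0.18 (0.19 fibrillar, 0.15 type IV, 0.19 other), that over all genes -0.00.

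Most collagens overlapped between the genotypes. Every KO library lay above every WT library only for Col19a1, 1 of 33 (3.03%), which is near the 2.64% of all genes with this pattern, and no collagen lay below in every KO library (1.85% of all genes). Without KO library R1 this held for Col11a2 and Col19a1, 2 of 33 (6.06%), against 3.5% of all genes, and again for no collagen below WT (3.23% of all genes). With 4 libraries against 4, or 3 against 4, the smallest p that a 2-sided exact permutation test of a single gene can give is 0.0286.

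**Figure D2:**
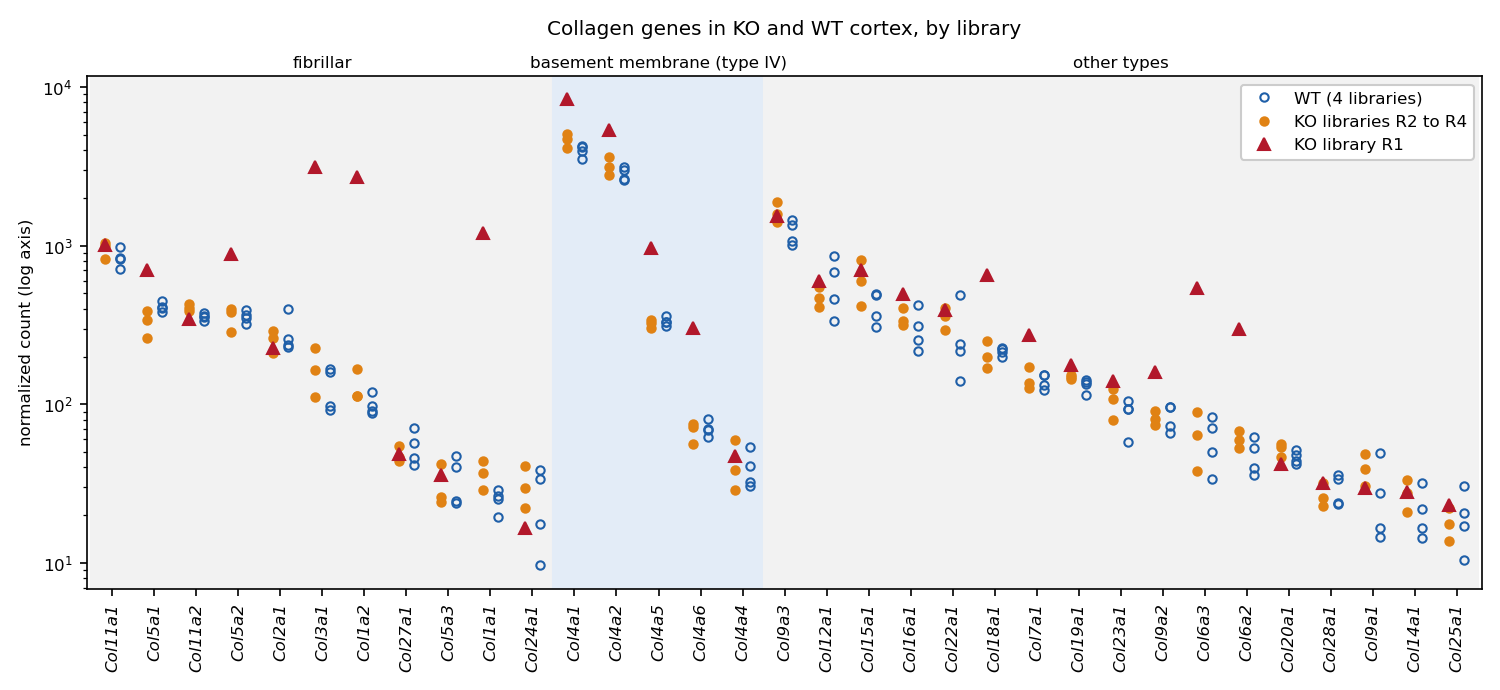
Normalized counts (log axis) of the 33 tested collagens in each of 8 libraries, grouped by class and ordered by WT mean within a class. Triangles are KO library R1, filled circles KO libraries R2 to R4 and open circles the 4 WT libraries; Col1a1, Col1a2 and Col3a1 stand 19.5 to 41.5 times above the median of the other 7 libraries in KO library R1, whereas Col9a3, Col11a1 and Col11a2 do not stand apart there.

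The chains of type I collagen are encoded by Col1a1 and Col1a2. Col1a1 had 1199, 28.9, 37.1 and 43.8 normalized counts in KO libraries R1 to R4 and 19.5, 28.9, 26.4 and 25.3 in WT libraries R1 to R4. The first KO library stood at 41.5 times the median of the other 7, and KO library R2 equalled the highest WT library. With all libraries the log2 fold change was 3.66 ± 1.24 (SE, edgeR, unadjusted p = 0.0132, adjusted p = 0.554). Without KO library R1 it was 0.58 ± 0.24 (unadjusted p = 0.0339, adjusted p = 0.855), past the study's thresholds in 6 of 7 fits without that library but not with DESeq2, the tool of the study. Its genotypes gave an exact permutation p of 0.0571 with and without that library.

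Col1a2 had 2716, 113, 112 and 167 normalized counts in the KO libraries and 119, 98.1, 88.5 and 91.2 in the WT libraries. Only KO libraries R1 and R4 lay above all WT libraries. This gave a log2 fold change of 2.93 ± 1.02 (edgeR, unadjusted p = 0.0155, adjusted p = 0.556) and, without KO library R1, 0.41 ± 0.18 (unadjusted p = 0.0517, adjusted p = 0.865). Both chains of type I collagen thus had the same highest library, and the ratio of Col1a1 to Col1a2 per length was 0.398 in KO library R1 and 0.148 to 0.299 in the others.

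Col3a1 encodes the sole chain of type III collagen, which lies with type I in extensible tissues and binds the receptor Gpr56 on radial glia at the pial surface. It had 3133, 111, 165 and 227 normalized counts in the KO libraries and 92.5, 160, 168 and 98 in the WT libraries. Apart from KO library R1, at 19.5 times the median of the others, the genotypes overlapped over most of their range. The log2 fold change of 2.77 ± 0.99 (edgeR, unadjusted p = 0.0172, adjusted p = 0.569) was 0.40 ± 0.27 without that library (unadjusted p = 0.17). Col3a1 and Col5a2 are neighbours on chromosome 1, tail to tail with 24614 bases between their annotated ends, yet KO library R1 held 2.44 times the median of the other 7 for Col5a2.

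The minor fibrillar chains of type V, which start the assembly of type I fibrils and regulate their diameter, behaved differently from one another. Col5a1 had 707, 386, 263 and 339 normalized counts in the KO libraries and 407, 379, 451 and 412 in the WT libraries. KO library R1 was the highest of all 8, and KO libraries R3 and R4 were the lowest. In edgeR's fit KO differed from WT by a log2 fold change of 0.02 ± 0.25 with all libraries (unadjusted p = 0.925) and -0.33 ± 0.13 without KO library R1 (edgeR, unadjusted p = 0.027, adjusted p = 0.832), when Col5a1 was the only collagen past the study's thresholds in the lower direction. It was called lower in all 7 fits made without that library and in 1 of the 15 fits made from all libraries or with each library left out, which is that same omission. Col5a2 had 888 in KO library R1, 284 to 397 in the other KO libraries and 321 to 393 in WT, with log2 fold changes of 0.44 ± 0.28 and, without KO library R1, 0.01 ± 0.13. Col5a3 had 24.3 to 41.8 normalized counts in KO and 23.8 to 47.3 in WT, with a log2 fold change of -0.05 ± 0.29.

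The type XI chains, which copolymerise with type II collagen in cartilage and are also expressed outside it, were of similar level in all 8 libraries. Col11a1 had 1006, 824, 1038 and 997 normalized counts in the KO libraries and 829, 987, 839 and 711 in the WT libraries. KO libraries R1, R3 and R4 lay above all WT libraries, and KO library R2 lay below most of them. Its log2 fold change was 0.20 ± 0.10 (edgeR, unadjusted p = 0.0768) and 0.19 ± 0.12 without KO library R1 (unadjusted p = 0.133). Col11a2 had 346, 403, 389 and 427 in the KO libraries and 378, 358, 357 and 336 in the WT libraries. Here KO library R1 lay within the WT range while the other 3 KO libraries lay above it. The log2 fold change of Col11a2 was 0.13 ± 0.08 (unadjusted p = 0.149) and, without KO library R1, 0.19 ± 0.08 (unadjusted p = 0.0371, adjusted p = 0.865), under the fold threshold of the study.

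Of the remaining fibrillar genes, Col2a1, the main collagen of cartilage, had 212 to 289 normalized counts in KO and 231 to 398 in WT (log2 fold change -0.18 ± 0.17). Its highest value was in WT library R3, and KO library R1, at 228, was not raised. Col24a1 and Col27a1 had 16.7 to 41.1 and 43.9 to 54.7 normalized counts in KO, and 9.64 to 38.3 and 41.2 to 70.9 in WT. Neither passed a threshold in either fit, with log2 fold changes of 0.19 ± 0.42 and -0.14 ± 0.20. Within the fibrillar class KO library R1 was thus the highest of the 8 libraries for 5 genes, Col1a1, Col1a2, Col3a1, Col5a1 and Col5a2, and for none of types II, XI, XXIV and XXVII.

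**Figure D3:**
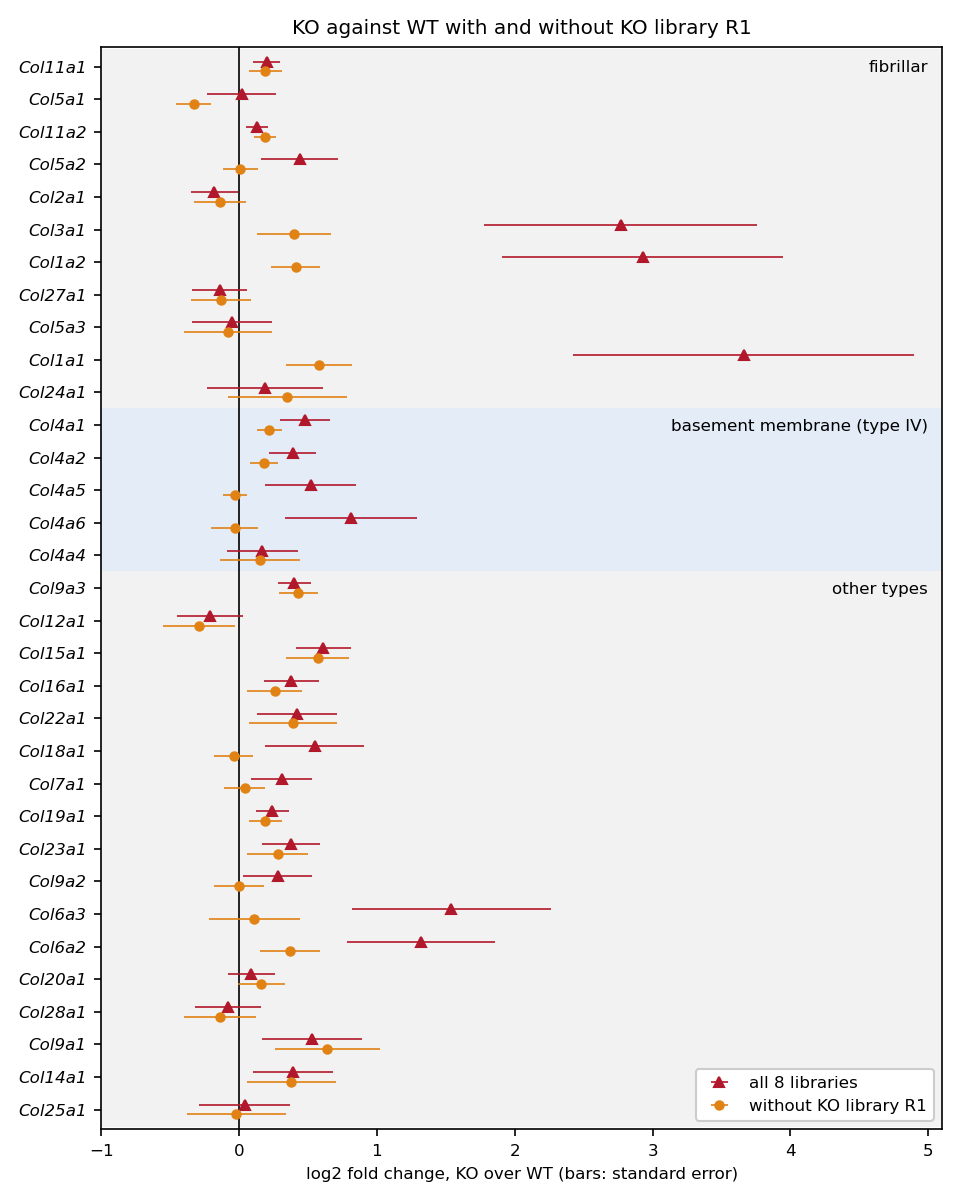
Log2 fold change of KO over WT (x axis, with bars of 1 standard error) for the 33 tested collagens, fitted with all 8 libraries (triangles) and without KO library R1 (circles). Col1a1 moves from 3.66 to 0.58 and Col6a3 from 1.54 to 0.11, whereas Col9a3 (0.40 and 0.43) and Col15a1 (0.61 and 0.57) keep their place.

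The type IV collagens are encoded by pairs of genes that lie head to head. Col4a1 and Col4a2 on chromosome 8 are transcribed away from each other, and in the annotation their first exons overlap by 22 bases. This shared start lies at chr8:11312805-11312826 and is shown on the plus strand, which is the sense strand of Col4a2.
Shared start of Col4a1 and Col4a2: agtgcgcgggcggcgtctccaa
Col4a4 and Col4a3 on chromosome 1 start 71 bases apart, and Col4a6 and Col4a5 on chromosome X start 1308 bases apart.

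Col4a1 had 8341, 4108, 4667 and 5024 normalized counts in KO libraries R1 to R4 and 4207, 3942, 3497 and 4240 in WT libraries R1 to R4. KO libraries R1, R3 and R4 lay above all WT libraries, and KO library R2 lay inside the WT range. Its fitted log2 fold change was 0.48 ± 0.18 (edgeR, unadjusted p = 0.0244, adjusted p = 0.611). Without KO library R1 it was 0.22 ± 0.09 (unadjusted p = 0.0304, adjusted p = 0.848), which is under the fold threshold. Col4a2, whose chain joins those of Col4a1 in the common type IV trimer, had 5348, 2793, 3128 and 3624 in the KO libraries and 3015, 2629, 2578 and 3121 in the WT libraries. Its order of libraries resembled that of Col4a1, with KO libraries R1, R3 and R4 above every WT library. The log2 fold change of Col4a2 was 0.39 ± 0.17 (unadjusted p = 0.0399, adjusted p = 0.633) and 0.18 ± 0.10 without KO library R1 (unadjusted p = 0.106). Per length, the ratio of Col4a1 to Col4a2 lay between 1.32 and 1.52 in all 8 libraries, with 1.44 ± 0.0695 in KO and 1.37 ± 0.0654 in WT (SD, n = 4).

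The X-linked pair Col4a5 and Col4a6, whose chains occur in basement membranes of smooth muscle and epithelia among others, was raised in KO library R1 alone. Col4a5 had 962, 325, 340 and 303 normalized counts in the KO libraries and 328, 332, 358 and 311 in the WT libraries. All libraries but KO library R1 lay in a narrow band. The log2 fold change was 0.52 ± 0.33 (unadjusted p = 0.142) and, without that library, -0.03 ± 0.09 (unadjusted p = 0.702). Col4a6 had 302 normalized counts in KO library R1, 56.3 to 75.5 in the other KO libraries and 62.5 to 80.6 in WT, with log2 fold changes of 0.81 ± 0.48 and -0.03 ± 0.17. The ratio of Col4a5 to Col4a6 per length was 3.24 in KO library R1 and 4.31 to 5.88 elsewhere, so that the larger relative excess was in Col4a6. Col4a4 had 28.9 to 59.4 normalized counts in KO and 30.4 to 54.2 in WT (log2 fold change 0.17 ± 0.26), and its partner Col4a3 did not pass the filter, with 7 to 19 counts in KO libraries and 2 to 11 in WT libraries before scaling.

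Types XV and XVIII are basement membrane zone collagens with a heparan or chondroitin sulphate chain, and their C-terminal fragments include endostatin. Col15a1 had 703, 415, 597 and 813 normalized counts in the KO libraries and 492, 499, 305 and 360 in the WT libraries. KO libraries R1, R3 and R4 lay above every WT library, and KO library R4, not R1, was the highest. On the log2 scale the difference of KO from WT was 0.61 ± 0.20 (edgeR, unadjusted p = 0.0123, adjusted p = 0.551) and 0.57 ± 0.23 without KO library R1 (unadjusted p = 0.0322, adjusted p = 0.85), while the exact permutation test gave p = 0.0857 and p = 0.171. Col18a1 had 657, 170, 200 and 252 in the KO libraries and 224, 226, 213 and 199 in the WT libraries. Its KO libraries other than R1 spanned the WT range on both sides, and the log2 fold change went from 0.55 ± 0.36 to -0.04 ± 0.14 without KO library R1.

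Type IX collagen is a fibril-associated collagen with interrupted helices, built from the chains Col9a1, Col9a2 and Col9a3. Col9a3 had 1544, 1414, 1592 and 1887 normalized counts in the KO libraries and 1347, 1448, 1013 and 1062 in the WT libraries. KO libraries R1, R3 and R4 lay above all WT libraries, and KO library R2 was below WT library R2 alone. Its log2 fold change of 0.40 ± 0.12 had the smallest unadjusted p of the collagens (edgeR, p = 0.00722, adjusted p = 0.49, exact permutation p = 0.0571). Without KO library R1 the log2 fold change was 0.43 ± 0.14 (unadjusted p = 0.0117, adjusted p = 0.73, exact permutation p = 0.114). Col9a3 and Col15a1 passed the study's thresholds in all 15 fits made from all libraries by different methods or with each library left out, compared with 12 of 15 for Col1a1 and for Col4a1. In the 7 fits without KO library R1, Col9a3 passed in 7 and Col15a1 in 6, the exception being voom with quality weights. These fits reuse the same libraries, and the main fit without KO library R1 is counted in both sets, so the numbers of fits are not independent support. The share of all genes that passed in every fit was not computed. The partners of Col9a3 were far less abundant per length, with WT means of 427 ± 74.6 normalized counts per kb for Col9a3, 28.3 ± 5.32 for Col9a2 and 7.04 ± 4.11 for Col9a1. Col9a1 had 29.5 to 48.6 normalized counts in KO and 14.5 to 49 in WT (log2 fold change 0.53 ± 0.36). Col9a2 had 159 in KO library R1 and 66.1 to 96.3 in the other 7 libraries (log2 fold change 0.28 ± 0.25, and -0.00 ± 0.18 without KO library R1).

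None of the other fibril-associated collagens, Col12a1, Col14a1, Col16a1, Col19a1, Col20a1 and Col22a1, passed an unadjusted p of 0.05 by edgeR with or without KO library R1. Col19a1, needed in mice for certain inhibitory synapses of the forebrain, had 178, 144, 149 and 154 normalized counts in the KO libraries and 142, 134, 114 and 139 in the WT libraries. Each KO library was above each WT library, with 144 the lowest of KO and 142 the highest of WT. This gave a log2 fold change of 0.24 ± 0.12 (edgeR, unadjusted p = 0.0663, adjusted p = 0.682, exact permutation p = 0.0286). Without KO library R1 it was 0.19 ± 0.12 (edgeR, unadjusted p = 0.149, exact permutation p = 0.0571). With 4 libraries against 4, lack of overlap always gives the permutation p of 0.0286, which therefore adds nothing to it. Col19a1 passed the study's thresholds in 0 of 15 fits, and in 0 of 7 without that library. Col12a1, which decorates type I fibrils, had 598, 470, 548 and 411 in the KO libraries and 458, 683, 859 and 333 in the WT libraries. The WT libraries alone held both the highest and the lowest value, and the log2 fold change was -0.21 ± 0.24. Col16a1 had 316 to 497 normalized counts in KO and 218 to 422 in WT (0.38 ± 0.20 on the log2 scale). Col22a1, known from tissue junctions such as that of muscle and tendon, had 293 to 407 and 140 to 488 (0.42 ± 0.29). Col14a1 and Col20a1, both structural relatives of Col12a1, had log2 fold changes of 0.39 ± 0.29 and 0.09 ± 0.17.

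Type VI collagen forms beaded filaments at the border of basement membranes and interstitial matrix. Col6a2 had 300, 59.3, 53.2 and 67.5 normalized counts in the KO libraries and 36, 39.4, 52.8 and 62.5 in the WT libraries. KO libraries R1 and R4 lay above all WT libraries, and the other 2 KO libraries lay between the WT libraries R3 and R4. In edgeR's fit KO differed from WT by a log2 fold change of 1.32 ± 0.54 (edgeR, unadjusted p = 0.0335, adjusted p = 0.631) and, without KO library R1, 0.37 ± 0.22 (unadjusted p = 0.126). Col6a3 had 542 normalized counts in KO library R1, 38 to 89 in the other KO libraries and 33.8 to 83.2 in WT, with log2 fold changes of 1.54 ± 0.72 (unadjusted p = 0.0565) and 0.11 ± 0.33. Col6a1, the obligate partner of both in the type VI trimer, was listed at 0 in all 8 libraries, a value that cannot be read as absence of the message because the rows of Rps13, a ribosomal protein gene used by every cell, also held 1 and 0 counts over all libraries. Col6a2, Col6a1 and Col18a1 lie on chromosome 10, the chromosome of Nuak1, at 7747, 7645 and 7204 kb from it.

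The remaining tested members were Col7a1, Col23a1, Col25a1 and Col28a1. Col7a1, the collagen of anchoring fibrils, had 272 normalized counts in KO library R1 and 123 to 171 in the other 7 (log2 fold change 0.31 ± 0.22, and 0.04 ± 0.15 without it). The transmembrane collagens Col23a1 and Col25a1 had 79.1 to 140 and 13.7 to 23.1 normalized counts in KO and 58.1 to 105 and 10.5 to 30.4 in WT, with log2 fold changes of 0.38 ± 0.21 and 0.04 ± 0.33. Col28a1 had 22.9 to 32 in KO and 23.7 to 36 in WT (-0.08 ± 0.24).

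Besides Col4a3, 5 members with a count did not pass the filter and were not tested. Col13a1, a transmembrane collagen of the neuromuscular junction, had 26 counts in KO library R1, 4 to 8 in the other KO libraries and 1 to 6 in WT before scaling. Col17a1, of hemidesmosomes, had 2 to 6 counts in KO libraries and 0 to 4 in WT libraries. Col8a1 and Col8a2 encode short chains found in vessel walls and in Descemet's membrane of the eye. Col8a1 had 1 to 9 counts in KO and 0 to 4 in WT. Col8a2 had 9 counts over the 4 KO libraries and 0 over the 4 WT libraries, where a count of 0 allows up to 3 counts in all (counting error only). Col6a6 had 3 counts in all, 2 of them in KO libraries. Col10a1, the collagen of hypertrophic cartilage, was listed at 0 throughout and together with Col6a1 completes the 41 rows.

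Summed over the members, collagen rows took up 0.193% of the counts of KO library R1, and 0.0818%, 0.0926% and 0.103% of KO libraries R2 to R4. The WT libraries R1 to R4 held 0.0843%, 0.0829%, 0.0796% and 0.0826%. KO libraries R3 and R4 were thus above all WT libraries as well, and KO library R2 was within the WT range. The genotype means over all members were 0.117% ± 0.051 in KO and 0.0824% ± 0.00199 in WT (SD, n = 4), and 0.0923% ± 0.0104 in KO without R1 (n = 3). Fibrillar collagens made up 0.0632% of the counts of KO library R1 and 0.0149% to 0.0177% of the others. Type IV collagens made up 0.0919% there and 0.0398% to 0.055% elsewhere, and the other types 0.0378% and 0.0201% to 0.03%. The mixture of collagens also differed, since fibrillar genes gave 32.8% of the collagen counts in KO library R1 but 17.2% to 21.1% in the other 7, while type IV genes gave 47.6% and 50.1% to 57.7%. These are shares of messages in bulk tissue, in which the number of cells of a type and the RNA per cell cannot be told apart.

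**Figure D4:**
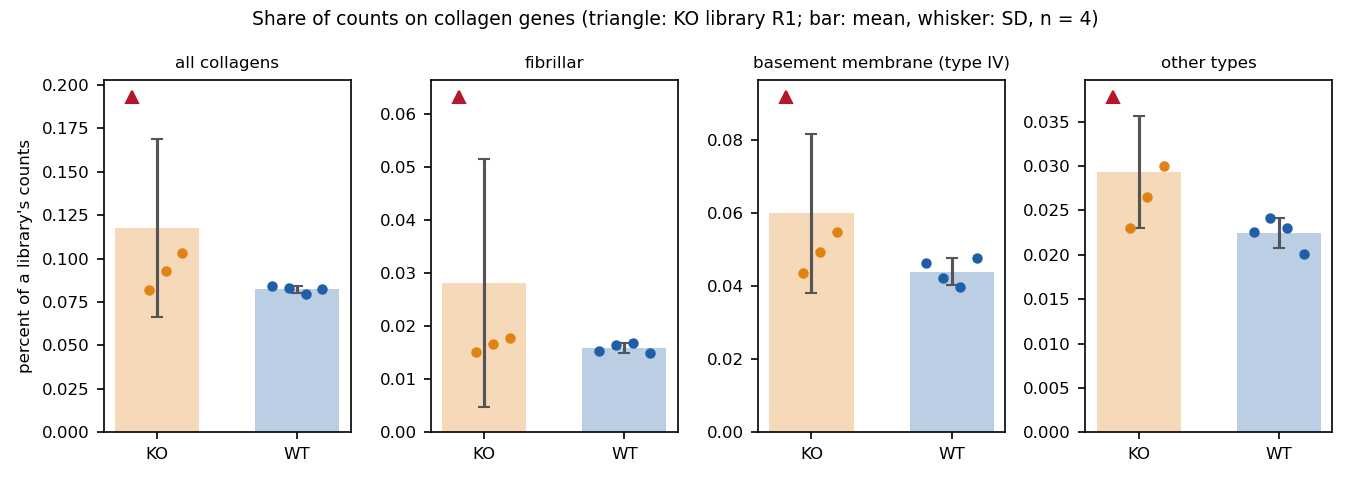
Percent of each library's counts on collagen rows (y axes, each from 0), for all members and for each class. Points are libraries (triangle, KO library R1), bars the mean of 4 libraries and whiskers the SD; the fibrillar share is 0.0632% in KO library R1 and at most 0.0177% in the others.

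The excess in KO library R1 was uneven across the family. That library had been set apart with its collagen values known, so the counts given here describe it and do not test it. KO library R1 was the highest of the 8 libraries for 17 of the 33 tested collagens (51.5%), compared with 16.8% of all genes. It exceeded 3 times the median of the other 7 for 7 collagens (21.2%), compared with 0.583% of all genes. In order, these were Col1a1 (41.5 times), Col1a2 (24.2), Col3a1 (19.5), Col6a3 (8.42), Col6a2 (5.63), Col4a6 (4.33) and Col18a1 (3.09). Below that limit lay Col4a5 at 2.94 and Col5a2 at 2.44, and the major type IV chains Col4a1 and Col4a2 were at 1.98 and 1.77. Among the collagens outside type IV with the highest WT levels per length, the ratios were 1.09 for Col9a3, 1.2 for Col11a1, 1.43 for Col15a1, 0.915 for Col11a2 and 1.57 for Col16a1.

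Markers of several other cell types were also higher in that library. The 15 meningeal fibroblast markers summed to 5735 normalized counts in KO library R1, to 1559 to 1647 in the other KO libraries and to 1433 to 1709 in WT. Of the 7 tested, 6 were highest in KO library R1, compared with 16.8% of all genes. Most of the sum in the other libraries came from Igfbp2, which had 1653 normalized counts in KO library R1 and 1146 to 1299 elsewhere, and the remaining 14 markers summed to 4082 in KO library R1 and 288 to 441 elsewhere. Ptgds and Igf2, the next by mean, had 1786 and 618 normalized counts in KO library R1 and at most 62.2 and 153 in the others. Of further genes of these fibroblasts, Dcn had 662 against at most 38.3, Aldh1a2 had 269 against at most 6.13, and Slc22a6 had 225 against at most 3.51. Nov, the tested marker of this list not highest in KO library R1, had 91 there and 43.9 to 223 in the others. Its log2 fold change was -0.57 ± 0.43, and -0.71 ± 0.47 without KO library R1. Endothelial markers summed to 6662 in KO library R1, 4230 to 5095 in the other KO libraries and 4118 to 4679 in WT, with all 11 tested markers highest in KO library R1. Pericyte and smooth muscle markers summed to 4648, 2612 to 3042 and 2706 to 2848 in the same order, with 10 of 12 highest there. Microglial markers summed to 2083 in KO library R1 and 1097 to 1723 in the other 7, with 8 of 9 tested markers highest in KO library R1. Choroid plexus markers summed to 105 and 16.1 to 35.5, and 0 of them passed the filter with all libraries. Of these, Aqp1 had 65.3 against at most 8.22 and Clic6 16.7 against at most 5.07. The other markers of this list lay within the range of the other 7 libraries. Among them were Sostdc1, at 11.5 in KO library R1 and 1.32 to 14 elsewhere, and Ttr, which that epithelium makes in quantity, at 3.84 and 1.86 to 15.2. Cartilage and bone markers (71.7 in KO library R1, 41.2 to 82.2 elsewhere), red blood cell markers (5530, 1610 to 7071) and markers of astrocytes and oligodendrocyte precursors (5484, 4154 to 6837) lay within the range of the other libraries. Of the tested markers, 1 of 1, 0 of 5 and 2 of 9 in the same order were highest in KO library R1. None of the 11 tested dorsal cortical neuron markers was highest there. The part of these cell types in the collagen values was not tested.

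**Figure D5:**
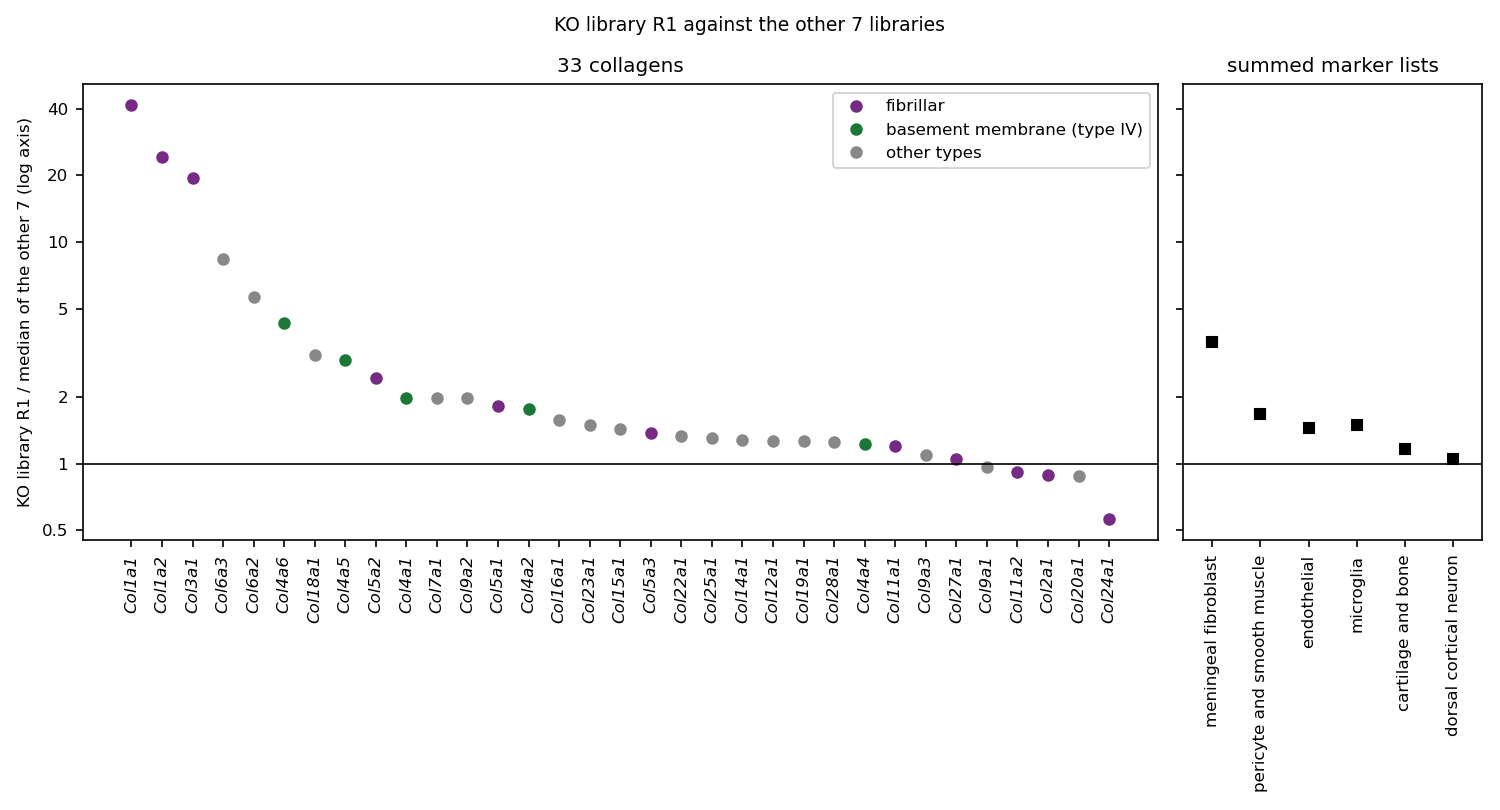
Value in KO library R1 divided by the median of the other 7 libraries (log axis), for the 33 tested collagens by class on the left and for the summed markers of 6 cell types on the right. Col1a1 is at 41.5 and the meningeal fibroblast sum at 3.53 (11.1 without Igfbp2), while Col9a3, at 1.09, and the neuronal sum, at 1.05, lie near the line at 1.

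The same marker lists were also compared without KO library R1, since Col1a1, Col9a3 and Col15a1 stayed past the study's thresholds there by edgeR. The median log2 fold change was then 0.10 over 11 endothelial markers, 0.12 over 12 pericyte and smooth muscle markers and 0.20 over 8 meningeal fibroblast markers, compared with 0.24, 0.24 and 1.04 with all libraries (7 meningeal markers tested). Past the study's thresholds without KO library R1 were 2 of the 11 endothelial, 0 of the 12 pericyte and 1 of the 8 meningeal markers, all higher in KO, where 1.81% of all genes were called higher. Of the 11 tested dorsal cortical neuron markers, 3 were called higher and 2 lower (1.72% of all genes), with a median of 0.10 in both fits. The median was 0.08 over 9 microglial, -0.05 over 9 astrocyte and oligodendrocyte precursor and 0.27 over 5 red blood cell markers. Called among these were 0 microglial markers, 1 astrocyte or oligodendrocyte precursor marker (lower) and 1 red blood cell marker (higher).

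Collagen chains are hydroxylated, folded, trimmed and cross-linked by dedicated enzymes and chaperones. Of 25 tested genes of this kind, 19 had a log2 fold change above 0, compared with 45.6% of all genes, with a median of 0.09, and 1 was past the study's thresholds, where 2.45% of all genes were called higher and 1.8% lower. This was Serpinh1, the collagen-specific chaperone of the endoplasmic reticulum, which had 1394, 806, 862 and 838 normalized counts in the KO libraries and 810, 728, 772 and 662 in the WT libraries. KO library R1 again stood highest, while KO library R2 lay just under the highest WT library. The log2 fold change was 0.38 ± 0.16 (edgeR, unadjusted p = 0.034, adjusted p = 0.631), and without KO library R1 it was 0.18 ± 0.08 (unadjusted p = 0.0473). Without that library 0 of the 25 passed the study's thresholds, while 20 of the 25 had a log2 fold change above 0 (49.9% of all genes), with a median of 0.06. Glt25d1, a collagen galactosyltransferase, had 1887, 2094, 1963 and 2136 normalized counts in the KO libraries and 1896, 1881, 1889 and 1873 in the WT libraries. Its KO libraries other than R1 lay above all WT libraries, and without R1 the log2 fold change was 0.14 ± 0.05 (edgeR, unadjusted p = 0.021). Adamts3, a procollagen N-propeptidase, had 1358, 1602, 1624 and 1665 in the KO libraries and 1275, 1390, 1683 and 1192 in the WT libraries. WT library R3 was the highest of the 8, and without KO library R1 the log2 fold change was 0.24 ± 0.10 (unadjusted p = 0.0368). The cross-linking enzyme Lox did not pass the filter, with 71.7 normalized counts in KO library R1 and at most 4.56 in the others.

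Of the collagen receptors, 10 were tested, 7 had a log2 fold change above 0 (45.6% of all genes), with a median of 0.17, and 0 were past the study's thresholds (4 of 10 above 0 and a median of -0.05 without KO library R1). Gpr56, the receptor of type III collagen in the cortex, had 2073, 2259, 2230 and 2132 normalized counts in the KO libraries and 2328, 2112, 2781 and 2684 in the WT libraries. Its genotypes overlapped through WT library R2, and the log2 fold change was -0.19 ± 0.08 (edgeR, unadjusted p = 0.0456, adjusted p = 0.646) and -0.16 ± 0.09 without KO library R1 (unadjusted p = 0.112). The discoidin domain receptors Ddr1 and Ddr2 had log2 fold changes of -0.05 ± 0.06 and 0.43 ± 0.25.

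Of the proteases and inhibitors of collagen degradation, 8 were tested, 4 had a log2 fold change above 0 (45.6% of all genes), with a median of 0.03, and 0 were past the study's thresholds with all libraries. When KO library R1 was left out, 2 of the 8 were above 0, with a median of -0.10, and 2 were called lower, Mmp14 and Ctsk, where 1.72% of all genes were. Mmp14, a membrane-anchored collagenase, had 1026, 733, 806 and 782 normalized counts in the KO libraries and 969, 891, 1091 and 978 in the WT libraries. KO libraries R2 to R4 lay below all WT libraries, and KO library R1 lay within them. For KO over WT the log2 fold change was -0.23 ± 0.10 (edgeR, unadjusted p = 0.046, adjusted p = 0.646) and, without KO library R1, -0.33 ± 0.08 (unadjusted p = 0.00179, adjusted p = 0.472). Ctsk, a lysosomal collagenase, had 118, 30.4, 21 and 21.6 normalized counts in the KO libraries and 33.9, 32.4, 34.4 and 33.8 in the WT libraries. KO libraries R2 to R4 were below and KO library R1 above every WT library. Its log2 fold change was 0.44 ± 0.52 with all libraries and -0.50 ± 0.22 without KO library R1 (edgeR, unadjusted p = 0.049, adjusted p = 0.865), so that its sign depended on that library.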

How the data were processed

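RNA from cortices of 4 KO and 4 WT embryos was sequenced as 100 bp paired-end, polyA-selected stranded libraries. The authors demultiplexed reads with bcl2fastq 2.17.1.14, trimmed them with Cutadapt 1.13 and Prinseq at a Phred quality of 20, removed reads under 25 bp, aligned to mm9 by TopHat2 2.0.13, handled alignments in SAMtools 0.1.19, and deposited raw counts per gene from HTSeq-count, whose mode and strand setting are not given in the sources used here. Reads of near-identical copies may have been lost at that step. Libraries were grouped by the genotype in the column names. There were 0 other per-library columns and 0 rows without a gene name.

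The main test was the quasi-likelihood F test of edgeR 4.0.16 in R 4.3.3, after filterByExpr and TMM scaling, with genotype as the only term and Benjamini-Hochberg adjustment over all genes tested. Standard errors (SE) of fold changes on the log2 scale were derived from F, as size over its square root. Single genes were also compared by 2-sided exact permutation of log2(normalized count + 1). Alternatives were DESeq2 1.42.0 (the authors' tool), its size factors in edgeR, other filters, robust dispersion, limma 3.58.1 voom with sample quality weights, and each library left out; fits without KO library R1 under these settings were chosen after seeing the data. The script was tested on simulated data. Since libraries of one genotype differed beyond sampling noise (chi-square per degree of freedom of at least 5.73), none was counted as a duplicate; p-values measure the spread between these embryos. Coordinates, transcript lengths and sequences come from GENCODE vM1 on NCBIM37 (mm9), using the transcript with the longest coding sequence. Triplet runs are at least 3 consecutive codon triplets opening with GGN.

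The collagens, their classes and the pathway and marker lists were chosen with earlier results of these data known. Values in every library are given for the 3 collagens of each class with the highest mean, those with an unadjusted p under 0.05 in either fit and those not overlapping between genotypes; of pathway lists, genes with such a p; of marker lists, at most 3 by mean. Aldh1a2, Dcn, Nov, Slc22a6, Clic6, Lox, Ddr1, Ddr2 and members given by range were named after their values were seen.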

Additional observations from a re-analysis of the deposited data

Results flagged for a closer look

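Of 74 groups of 4 libraries examined (the values of each collagen in KO and in WT, and the class shares), 10 held a library farther from the others than Dixon's 95% limit allows. The groups share libraries, and the class shares are sums of the same genes, so this number was not set against chance. KO library R1 had been set apart with its collagen values known, so the count describes that library and does not test it. In 9 of them it was KO library R1. Its normalized counts were 1199 for Col1a1, 2716 for Col1a2, 3133 for Col3a1, 962 for Col4a5, 302 for Col4a6, 300 for Col6a2, 542 for Col6a3 and 657 for Col18a1. The share of its counts on fibrillar collagens was 0.0632%. The remaining case was Col2a1 in WT library R3, with 398 normalized counts against 231 to 258 in the other WT libraries.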

How the results depend on the processing

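No paired analysis was possible because a genotype and running number are all that a column gives, and no label ties them to a litter or embryo, so the planned litter block was not run. No collagen passed an adjusted p of 0.05 under any alternative. The 8 collagens past the study's thresholds, all higher, became 3 with DESeq2 (3 higher), which gave no p for Col1a1, Col1a2 and Col3a1, and 3 with robust dispersion (3 higher). Without KO library R1, 4 collagens were past them, and 7 (6 higher) with voom quality weights. With each library left out, the number ranged from 4 (3 higher, 1 lower), without KO library R1, to 14 (14 higher, 0 lower), without KO library R2. Shares of all genes called were computed only for the main edgeR fits, with all libraries and without KO library R1. The median log2 fold change ranged from 0.178 to 0.434 over the tested collagens and from 0.186 to 0.434 over the other types. The type IV median, 0.478 in the main fit, was 0.153 without KO library R1, 0.607 without KO library R2 and 0.221 with voom quality weights. The fibrillar median, 0.19 in the main fit, was 0.189, 0.131 and 0.195 in the same order. The voom weights were lowest for WT library R4, at 0.458, followed by KO library R1, at 0.677. With these weights Col9a2 was at -0.00475, Col5a1 at -0.286, Col1a1 at 1.23, Col1a2 at 0.691, Col3a1 at 1.02 and Col6a3 at 0.273. Of the 8 calls Col4a1, Col9a3 and Col15a1 were kept, and Col9a1, Col14a1, Col16a1 and Col22a1 were added. Without KO library R1, DESeq2 called Col9a3 and Col15a1 higher, not Col1a1. Leaving out single libraries turned the sign of 13 collagens, whose log2 fold changes ranged from -0.223 to 0.135 (Col5a3), -0.00044 to 0.414 (Col9a2), -0.0252 to 1.05 (Col4a6), -0.0339 to 0.699 (Col4a5), -0.254 to 0.0163 (Col27a1), -0.202 to 0.295 (Col25a1), -0.18 to 0.0508 (Col28a1), -0.117 to 0.51 (Col24a1), -0.0395 to 0.35 (Col4a4), -0.0369 to 0.753 (Col18a1), -0.327 to 0.207 (Col5a1), -0.386 to 0.0329 (Col12a1) and -0.274 to 0.0317 (Col2a1). The cause was not tested. In all, 434 fold changes of single collagens under an alternative kept their sign and 24 did not. At 9643711 to 27014858 counts a library, the 6 collagens with the fewest counts could not be tested.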
